A study of Mus musculus with 8 samples.

Results

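The Frizzled receptors Fzd1 to Fzd7, the co-receptors Lrp5 and Lrp6 and the R-spondin receptor Lgr4 carry Wnt signals into a cell. These 10 genes were taken by symbol from the 25485 genes of a deposited table of scaled counts and joined by Ensembl identifier to a deposited table of raw counts for 53801 genes. Their transcripts were measured in Lgr5-GFP+ cells, the stem cells at the base of the intestinal crypt. These cells were sorted by FACS from crypts of 8 mice after staining for EpCAM, CD45 and CD24. In 4 mice the cells were labelled β-catGOF; Mll1-/- and in 4 mice, the controls, β-catGOF; Mll1+/-. Both groups carried a β-catenin allele that loses its exon 3 and is then stabilised, and a Cre recombinase inducible with tamoxifen under the control of Lgr5. Mll1 was floxed on both alleles in the Mll1-/- mice and on 1 allele in the controls. Recombined cells of the controls thus also carried the active β-catenin and the loss of 1 Mll1 allele. All mice received 50 mg/kg tamoxifen on 3 consecutive days at 4 to 6 weeks of age and were analysed 10 days after induction. Recombination was limited to cells in which the Lgr5 promoter was active, and both groups carried the Lgr5 knock-in. The study traced recombination to only a part of the crypts, at first equal in both genotypes. Recombined cells then expanded in the controls and became fewer in the Mll1-/- mice. The sort was on GFP and not on recombination, so a library can mix recombined and other cells in a share that is not known. No library without the active β-catenin was analysed, so the effect of β-catenin itself on the receptors cannot be read from these values.

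A Wnt ligand binds the extracellular cysteine-rich domain of a Frizzled, a receptor that spans the membrane repeatedly, and joins it to Lrp5 or Lrp6, whose phosphorylated tail then recruits Axin and protects β-catenin from degradation. Lgr4 and its relative Lgr5 bind R-spondins and thereby keep the ubiquitin ligases Rnf43 and Znrf3 from removing Frizzleds and Lrp6 from the cell surface. In the crypt, Paneth cells and stroma supply Wnt ligands, stem cells depend on this input, and several genes of the pathway are themselves transcribed in response to Wnt. Stabilised β-catenin acts below the receptors. Mll1, encoded by Kmt2a, is a histone H3K4 methyltransferase that contains a domain binding CpG-rich DNA without methylation.

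Between 14468751 and 16847793 counts fell on genes per library, with 15983 to 17266 genes at 10 counts or more, and mitochondrial genes held 17.1 to 30.1% of the counts. Levels are in CPM (library sizes scaled by TMM), and those of different genes were compared after division by gene length (CPM per kb). A count of 3 corresponded to 0.162 to 0.241 CPM. Kmt2a, the targeted gene, was not lower in the libraries labelled Mll1-/-: it was at 59.5 (J_7075), 62.6 (J_7096), 78.5 (J_7135) and 53.5 (J_7136), against 50.2 (J_7079), 64.9 (J_7100), 51.2 (J_7134) and 48.9 CPM (J_7139) of the Mll1+/- mice. The count per gene includes the exons outside the floxed part, so it does not check the deletion, and genotypes are given as labelled throughout. J_7135 stood apart from the other libraries. Its closest Spearman correlation with another library over the tested genes was 0.909, against 0.947 or more for each of the others. The header of the count table shows 2 sets of consecutive library numbers, each with 2 libraries of each genotype. J_7075, J_7079, J_7096 and J_7100 form the first and J_7134, J_7135, J_7136 and J_7139 the second. Nothing in the labels says what separated the sets.

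All 10 receptors passed the filter on low counts, and none was called between the genotypes by edgeR's quasi-likelihood test at a Benjamini-Hochberg adjusted p under 0.1. Over all 16445 genes tested, 0.0851% were called, which is 14 genes (0.0486% higher and 0.0365% lower in Mll1-/- cells). At an unadjusted p under 0.05 there was 1 receptor, Lgr4 (10% of the receptors), against a background of 9.15% of the tested genes. Lgr4 was also the only receptor whose libraries did not overlap between the genotypes, against a background of 6.28% in either direction and 2.94% in the direction of Lgr4. These shares lay near the background. Of the receptors, 5 had a higher and 5 a lower fitted level in Mll1-/- cells, with a median log2 fold change of 0.00, and the median over all tested genes was 0.01. DESeq2, with which the study made its own test, was fitted here to the same genes and called 1 receptor, Lgr4. The background was 406 called among the 14817 genes to which it gave an adjusted p (2.74%).

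**Figure D1:**
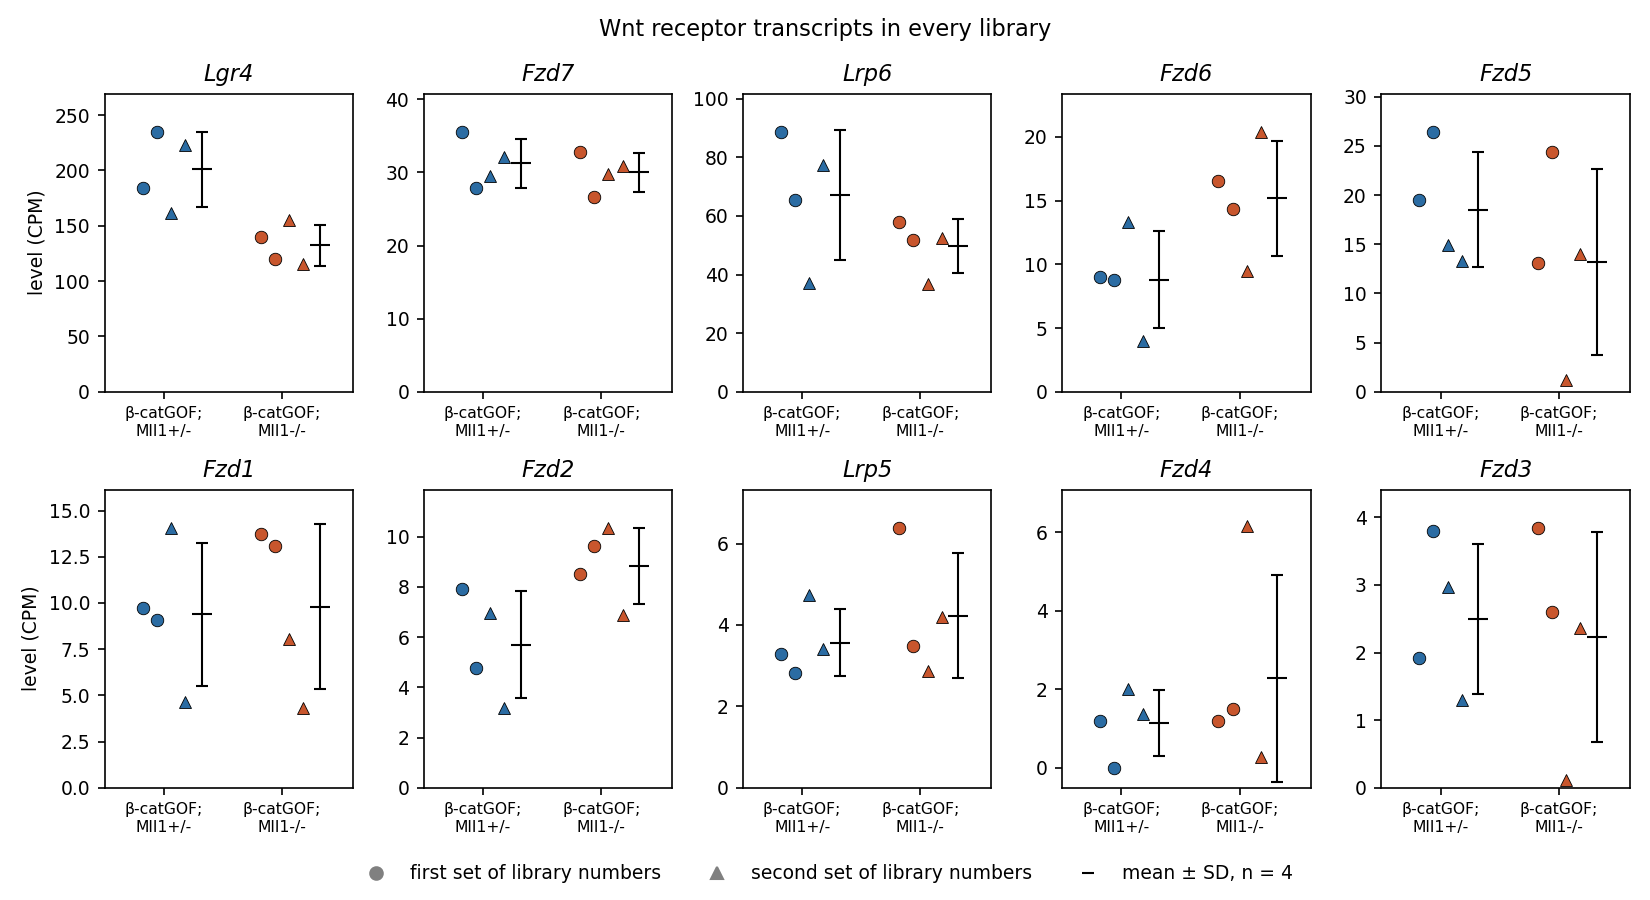
Level of each receptor in CPM (vertical axes, each panel on its own scale) in the 4 libraries of each genotype, with a mark for each library and a bar for the mean ± SD. Circles and triangles stand for the 2 sets of library numbers. Lgr4 is the only receptor without overlap between the genotypes, Fzd7 lies between 26.6 and 35.5 CPM in all libraries, and J_7135 is the lowest library for Fzd5 and Fzd3 and the highest for Fzd4.

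Ranked by their mean over the 8 libraries per length, the receptors spanned a wide range. Lgr4 was first at 28.3 CPM per kb, followed by Fzd7 at 6.76 CPM per kb and Lrp6 at 4.27 CPM per kb. A middle group held Fzd6 at 2.49 CPM per kb, Fzd5 and Fzd1 both at 2.29 CPM per kb and Fzd2 at 1.98 CPM per kb. Lrp5 at 0.400 CPM per kb, Fzd4 at 0.254 CPM per kb and Fzd3 at 0.184 CPM per kb were the least abundant. Lgr4 exceeded Fzd7 in 8 of 8 libraries, Fzd7 exceeded Lrp6 in 8, and Fzd2 exceeded Lrp5 in 8. The order was not kept within the middle group, where Fzd6 exceeded Fzd5 in 4 libraries, Fzd5 exceeded Fzd1 in 5 and Fzd1 exceeded Fzd2 in 6. Nor was it kept at the bottom, where Fzd4 exceeded Fzd3 in 5 libraries. Lrp6 was above Fzd6 in 6 libraries and Lrp5 above Fzd4 in 7. Within a genotype the means gave different orders in these groups. In Mll1+/- cells Fzd5 was at 2.68, Fzd1 at 2.23, Fzd6 at 1.82 and Fzd2 at 1.56 CPM per kb, and Fzd3 at 0.195 was above Fzd4 at 0.170 CPM per kb. In Mll1-/- cells Fzd6 was at 3.15, Fzd2 at 2.41, Fzd1 at 2.34 and Fzd5 at 1.90 CPM per kb, and Fzd4 at 0.339 was above Fzd3 at 0.174 CPM per kb. Lgr4, Fzd7, Lrp6 and Lrp5 held the same ranks in both genotypes.

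The promoters of Lgr4 and Fzd7 are shown as those of the 2 most abundant receptors per length, one with separated genotypes and the other with the steadiest level. They give the 250 bases before the RefSeq start in GRCm38.p6, 5′ to 3′ on the plus strand, which is the strand of both genes, with CpG dinucleotides, the target of the CpG-binding domain of Mll1, in capitals. The window is chr2:109917397-109917646 for Lgr4 and chr1:59481897-59482146 for Fzd7.
Lgr4: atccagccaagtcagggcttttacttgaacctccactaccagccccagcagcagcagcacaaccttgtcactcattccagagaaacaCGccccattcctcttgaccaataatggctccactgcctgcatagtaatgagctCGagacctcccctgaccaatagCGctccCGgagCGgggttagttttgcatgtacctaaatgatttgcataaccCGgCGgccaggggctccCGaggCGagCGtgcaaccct
Fzd7: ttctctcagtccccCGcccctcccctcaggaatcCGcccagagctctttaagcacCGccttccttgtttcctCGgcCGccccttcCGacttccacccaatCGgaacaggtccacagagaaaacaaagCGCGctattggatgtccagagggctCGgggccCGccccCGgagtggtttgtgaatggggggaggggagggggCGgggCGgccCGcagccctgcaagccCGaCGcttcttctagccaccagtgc
The Lgr4 window holds 10 CpG, and 62.2% of the 32851 promoters in the RefSeq table have fewer. The Fzd7 window holds 17, and 76.5% have fewer. Of the other receptors, Fzd1 with 12 CpG, Fzd4 with 25 and Fzd5 with 32 matched the table by symbol, against a median of 6 over all promoters. Of the TCF core motif, only the exact sequence ATCAAAG was searched on both strands of the 5 windows. It was found in 0, while 3.21% of all promoters hold it. Other forms of the motif were not searched, and the Fzd7 window printed above holds the similar sequence AACAAAG. The search therefore cannot decide whether these windows lack a TCF site. The data contain no measurement of chromatin, and these letters are a description of the windows.

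Fzd7 (ENSMUSG00000041075, chr1:59482424-59486955 of GRCm38, plus strand), the Frizzled best known as a Wnt receptor of Lgr5+ stem cells, was the most abundant Frizzled. It was at 32.9 (J_7075), 26.6 (J_7096), 29.7 (J_7135) and 30.9 CPM (J_7136) of the Mll1-/- mice, and at 35.5 (J_7079), 27.8 (J_7100), 29.5 (J_7134) and 32.2 CPM (J_7139) of the Mll1+/- mice. The groups overlapped fully and no library stood out. The log2 fold change of Mll1-/- over Mll1+/- was -0.06 (SE 0.16, adjusted p = 0.945, edgeR), with -0.09 within the first and -0.02 within the second set of library numbers, and 0.12 on total counts, where the median of all genes shifts to 0.19. Its coefficient of variation over the 8 libraries was 9.32%, where counting alone would give 4.53%, and only 1.91% of the tested genes had a lower one. Of the summed Frizzled transcripts per length, Fzd7 made up 31.6 to 58.5%, with a median of 40.8%.

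Fzd5 (ENSMUSG00000045005, chr1:64730558-64737751, minus strand), a receptor known to be required for Paneth cell maturation, had the widest spread among the more abundant Frizzleds. Its level was 13.04 (J_7075), 24.4 (J_7096), 1.24 (J_7135) and 13.99 (J_7136), against 19.4 (J_7079), 26.4 (J_7100), 14.9 (J_7134) and 13.3 CPM (J_7139) of the Mll1+/- mice. J_7135 was far below all others, with 23 counts where the other libraries held 186 or more, and the remaining libraries overlapped between the genotypes. The log2 fold change was -0.49 (SE 0.65, adjusted p = 0.863, edgeR) and became -0.11 without J_7135. Of the exonic bases of Fzd5, 17.8% are shared with Gm38058, an annotated gene on the opposite strand. Reads were counted without strand and those overlapping both genes were left out, so the level of Fzd5 per length is understated. Over its unshared bases Fzd5 was at 2.79 CPM per kb, above Fzd6 at 2.57 CPM per kb. Antisense reads in the unshared bases cannot be told apart from those of Fzd5. Gm38058 held 223 counts in J_7135 and 2 to 33 counts in the other libraries, and its part in the low Fzd5 count was not tested.

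Fzd6 (ENSMUSG00000022297, chr15:39006034-39038188, plus strand), a Frizzled of the planar polarity pathway, was at 16.5 (J_7075), 14.4 (J_7096), 9.52 (J_7135) and 20.4 CPM (J_7136) of the Mll1-/- mice. In the Mll1+/- mice it was at 9.03 (J_7079), 8.79 (J_7100), 13.3 (J_7134) and 4.00 CPM (J_7139). Except for J_7135 and J_7134, whose ranks crossed, the Mll1-/- libraries were the higher ones. The log2 fold change of 0.79 (SE 0.38) had an unadjusted p of 0.0635 and an adjusted p of 0.573 with edgeR, and the exact two-sided permutation test of the single gene gave p = 0.0571. It was 0.78 within the first and 0.92 within the second set of library numbers. Gm26704, on the opposite strand, shares 3.16% of the exonic bases of Fzd6 and held 0 to 25 counts.

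Fzd2 (ENSMUSG00000050288, chr11:102604396-102608058, plus strand), a single-exon gene like Fzd1 and Fzd7 whose product also serves Wnt5a signalling, was at 8.50 (J_7075), 9.62 (J_7096), 10.3 (J_7135) and 6.90 CPM (J_7136). The Mll1+/- libraries held 7.90 (J_7079), 4.78 (J_7100), 6.98 (J_7134) and 3.16 CPM (J_7139). The 3 highest values were from Mll1-/- mice, while J_7136 lay among the controls. The fitted log2 fold change was 0.63 (SE 0.33, unadjusted p = 0.0870 and adjusted p = 0.615 by edgeR, exact permutation p = 0.0857), and it was 0.55 and 0.83 within the 2 sets of library numbers. Fzd2 made up 11.6 to 19.6% of the Frizzled transcripts per length in Mll1-/- cells and 7.12 to 12.4% in Mll1+/- cells.

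Fzd1 (ENSMUSG00000044674, chr5:4753839-4758035, minus strand), a receptor for canonical Wnts, was at 13.7 (J_7075), 13.1 (J_7096), 8.06 (J_7135) and 4.33 CPM (J_7136). The controls held 9.75 (J_7079), 9.07 (J_7100), 14.04 (J_7134) and 4.65 CPM (J_7139). High and low libraries occurred in both genotypes, and the lowest of each was in the second set of library numbers. For Fzd1 the log2 fold change was 0.07 (SE 0.43, adjusted p = 0.978, edgeR), with 0.51 in the first and -0.44 in the second set, and it took the other sign with a block for the sets (-0.032) or an offset for gene length (-0.0055).

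Fzd3 and Fzd4 were close to the limit of detection in some libraries. Fzd3 (ENSMUSG00000007989, chr14:65192449-65262463, minus strand), known from axon guidance and planar polarity, was at 3.84 (J_7075), 2.61 (J_7096), 0.108 CPM (J_7135, 2 counts) and 2.36 CPM (J_7136). It was at 1.91 (J_7079), 3.80 (J_7100), 2.97 (J_7134) and 1.29 CPM (J_7139). Apart from J_7135 the genotypes covered the same range, and the log2 fold change was -0.16 (SE 0.79, adjusted p = 0.971, edgeR), 0.24 without J_7135 and 0.036 on total counts, where the median of all genes is 0.19.

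Fzd4 (ENSMUSG00000049791, chr7:89404355-89413134, plus strand), the receptor for Norrin in retinal vessels, was at 1.18 (J_7075), 1.51 (J_7096), 6.17 CPM (J_7135, 114 counts) and 0.263 CPM (J_7136). It was at 1.20 (J_7079), 2.01 (J_7134) and 1.36 (J_7139), and J_7100 held 0 counts, which allows up to 0.211 CPM. J_7135 alone was high, at 114 counts against 26 or fewer elsewhere. For Fzd4 the log2 fold change was 1.00 (SE 1.10, adjusted p = 0.837, edgeR) with all libraries and -0.20 without J_7135. J_7135 thus had the lowest Fzd3 and Fzd5 and the highest Fzd4 level of the 8 libraries, while its Fzd7 level was within the range of the others.

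The 7 Frizzleds together summed to 14.4 to 18.6 CPM per kb in Mll1-/- cells and to 12.1 to 17.3 CPM per kb in Mll1+/- cells, so the groups overlapped. Their log2 fold changes had a median of 0.07, with 4 above and 3 below 0. Fzd8, tested but no member of the set, was at 0.737 ± 0.808 CPM in Mll1-/- and 1.54 ± 0.925 CPM in Mll1+/- cells (0 to 36 counts, log2 fold change -1.05, adjusted p = 0.798, edgeR). Fzd9 and Fzd10 did not pass the filter, with 0 to 21 and 0 to 2 counts per library.

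**Figure D2:**
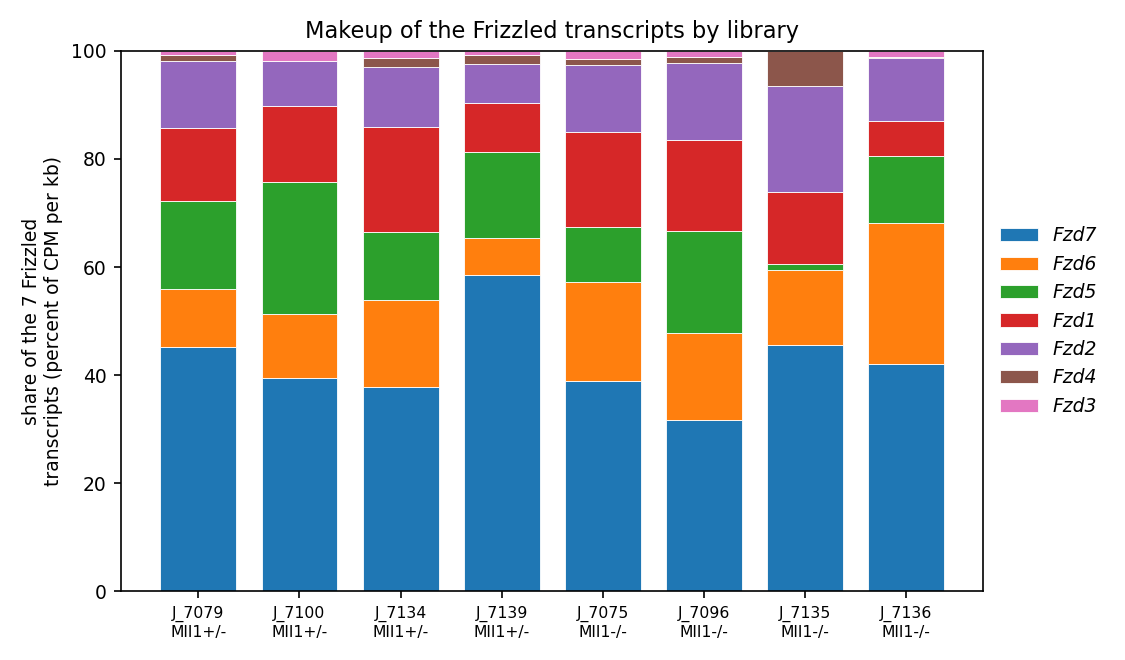
Share of each of the 7 Frizzleds in their summed CPM per kb (vertical axis, percent) in each library (horizontal axis), the Mll1+/- libraries on the left. Fzd7 holds the largest share in every library, from 31.6% in J_7096 to 58.5% in J_7139, and J_7135 differs from the rest by a small Fzd5 share (1.25%) and a larger Fzd4 share (6.38%).

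Of the LRP co-receptors, Lrp6 was the more abundant per length in every library, by a ratio of 5.57 to 19.2. Lrp6 (ENSMUSG00000030201, chr6:134446476-134566965, minus strand) was at 58.1 (J_7075), 51.7 (J_7096), 36.7 (J_7135) and 52.4 CPM (J_7136) of the Mll1-/- mice. It was at 88.5 (J_7079), 65.5 (J_7100), 37.0 (J_7134) and 77.2 CPM (J_7139) of the Mll1+/- mice. The 3 highest libraries were controls, but J_7134 was nearly as low as J_7135, so the genotypes overlapped. For Lrp6 the log2 fold change was -0.43 (SE 0.26, unadjusted p = 0.134 and adjusted p = 0.660 by edgeR, exact permutation p = 0.257), with -0.47 and -0.28 within the sets of library numbers.

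Lrp5 (ENSMUSG00000024913, chr19:3584828-3686564, minus strand), the other co-receptor and well known from bone mass, was at 6.37 (J_7075), 3.48 (J_7096), 2.87 (J_7135) and 4.20 CPM (J_7136). It was at 3.29 (J_7079), 2.81 (J_7100), 4.73 (J_7134) and 3.42 CPM (J_7139). J_7075 was the highest library, the rest lay close together, and the log2 fold change was 0.25 (SE 0.36, adjusted p = 0.881, edgeR). Without J_7075 it was -0.03.

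Lgr4 (ENSMUSG00000050199, chr2:109917647-110014257, plus strand), the R-spondin receptor that is expressed more widely in the epithelium than Lgr5, was the receptor with the clearest separation of the genotypes. It was at 139.7 (J_7075), 119.8 (J_7096), 155 (J_7135) and 115 CPM (J_7136) of the Mll1-/- mice. It was at 184 (J_7079), 234 (J_7100), 162 (J_7134) and 223 CPM (J_7139) of the Mll1+/- mice. In CPM each Mll1-/- library was below each Mll1+/- library, although J_7135 and J_7134 came close. The TMM factors behind these values were 1.00 to 1.13 in Mll1-/- and 0.864 to 0.995 in Mll1+/- libraries. On total counts the genotypes overlapped, as J_7134 held 2014 of 14468751 counts and J_7135 held 2870 of 16472204. The means were 132 ± 18.5 CPM and 201 ± 33.9 CPM (SD, n = 4 each). The log2 fold change of -0.60 (SE 0.16) had an unadjusted p of 0.00350 and an adjusted p of 0.274 by edgeR, rank 210 of the tested genes, and so did not pass the threshold. The exact two-sided permutation test of the single gene gave p = 0.0286, the smallest that 70 assignments allow. The difference was -0.68 in the first and -0.51 in the second set of library numbers, and it lay between -0.69 and -0.52 when any 1 library was left out. On total counts it was -0.41 (SE 0.19, unadjusted p = 0.0529 and adjusted p = 0.407 by edgeR). There the median of all genes shifts to 0.19, relative to which Lgr4 was at -0.60. DESeq2, which called 2.74% of its genes, gave -0.59 with an adjusted p of 0.0374. The mouse is the replicate here, and in RNA of sorted cell pools fewer cells with a transcript and less transcript per cell cannot be told apart.

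**Figure D3:**
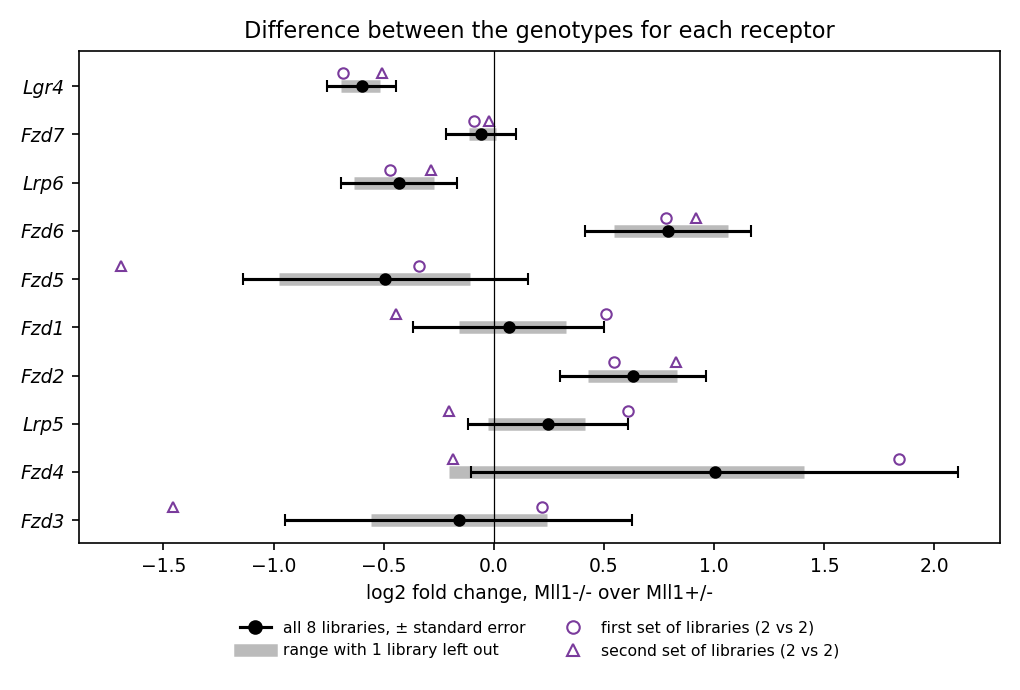
Log2 fold change of Mll1-/- over Mll1+/- (horizontal axis) for each receptor, ordered by level from the top, with the standard error as a black bar, the range with 1 library left out in grey and, as open marks, the difference of the mean log2 CPM within each set of library numbers (2 against 2 libraries). Lgr4, Lrp6, Fzd6, Fzd5 and Fzd2 keep their sign in both sets and in every fit with 1 library left out, and the other receptors do not.

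Lgr5, the stem cell receptor of the same family by which the cells were sorted, overlapped between the genotypes. The sort selected cells by GFP from the Lgr5 locus, so the likeness of Lgr5 between the groups is no independent result. Lgr5 was at 25.4 ± 1.94 CPM per kb in Mll1-/- cells and 26.4 ± 4.00 CPM per kb in Mll1+/- cells (SD, n = 4 each). The ratio of Lgr4 to Lgr5 per length was 0.880 in J_7075, 0.776 in J_7096, 1.02 in J_7135 and 0.865 in J_7136, against 1.04 in J_7079, 1.39 in J_7100, 1.31 in J_7134 and 1.45 in J_7139. The ratios did not overlap, but J_7135 and J_7079 were almost equal. As the group means of Lgr5 were close, the ratios mostly restate the Lgr4 difference. The means were 0.884 ± 0.0994 and 1.30 ± 0.179. Lgr6, the other relative, held 0 to 28 counts per library.

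**Figure D4:**
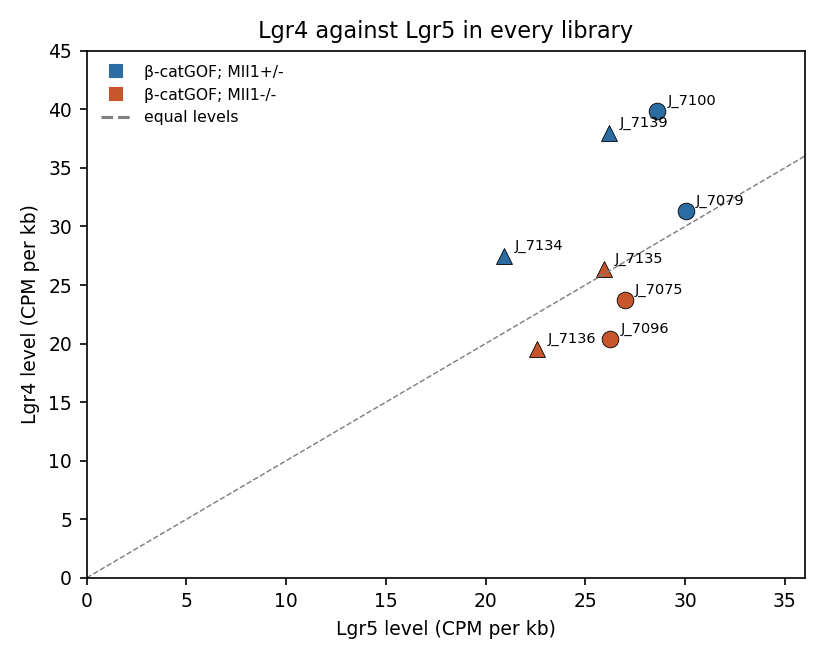
Lgr4 level against Lgr5 level, both in CPM per kb, for each library (circles for the first and triangles for the second set of library numbers, colour for the genotype) with a dashed line at equal levels. The Lgr5 levels of the genotypes cover the same range, while Lgr4 is at or below 26.4 CPM per kb in the Mll1-/- and at or above 27.5 CPM per kb in the Mll1+/- libraries.

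Markers of several cell types also differed between the genotypes without overlap, although no marker gene was called by edgeR. Over all tested genes, 50.8% had a positive fold change and 6.28% did not overlap, in either direction. At an unadjusted p under 0.05 by edgeR, 5.4% of them were higher and 3.75% lower in Mll1-/- cells. Of 9 enterocyte markers 7 were tested and all 7 had a negative fold change, and the 9 summed to 196 to 272 CPM in Mll1-/- and 339 to 434 CPM in Mll1+/- libraries, with Fabp2 the most abundant. The 10 stem cell markers summed to 11058 to 17995 CPM against 23498 to 27929 CPM, mostly through Olfm4 (8080 to 14429 CPM against 19281 to 22949 CPM). Of the 10, 8 had a negative fold change, with Olfm4 and Slc12a2 (-0.87) lower without overlap. The other 2 were Axin2, higher without overlap (0.44, 226 ± 34.2 CPM against 167 ± 14.5 CPM), and Smoc2 (0.03). Of 12 stroma markers 2 were tested, both positive, and the sum of the 12 (49.8 to 119 CPM against 4.26 to 6.75 CPM) was carried by Vim, at 44.3 to 116 CPM against 0.194 to 4.89 CPM. Pdgfrb, also tested, overlapped, and the stroma markers not tested held 25 counts or fewer in any library. The 8 epithelial markers, 7 of them with a positive fold change, summed to 3693 to 4536 CPM against 2951 to 3241 CPM, with Epcam the most abundant at 1286 to 1697 CPM against 1255 to 1472 CPM. The other summed levels overlapped. The 10 Paneth cell markers summed to 1566 to 5060 CPM against 3113 to 4855 CPM and were led by Defa24, but 8 had a negative fold change and 5 of these an unadjusted p under 0.05, with Defa17 and Itln1 lower and Mmp7 higher without overlap. The 10 goblet cell markers, led by Agr2, summed to 715 to 1305 CPM against 616 to 819 CPM. Of these 8 had a positive fold change, with Muc2, Guca2a and Spdef higher without overlap. The other 2 were lower with overlap, Zg16 (log2 fold change -4.03, 0.890 ± 1.38 CPM against 14.6 ± 15.8 CPM) and Spink4 (-0.54). All 7 tested enteroendocrine markers of 10 had a negative fold change, Chga and Chgb without overlap. Chga and Chgb passed the filter on low counts through their Mll1+/- libraries. The 10 enteroendocrine markers, led by Chgb, summed to 8.08 to 12.2 CPM against 9.71 to 79.0 CPM. The 8 tuft cell markers (2 tested, both positive, led by Avil) summed to 3.09 to 10.3 CPM against 2.51 to 3.37 CPM, and the 6 endothelial markers (1 tested, Pecam1) to 4.29 to 6.63 CPM against 4.29 to 5.94 CPM. The 8 immune markers (3 tested, 1 positive and 2 negative, led by Cd74) summed to 122 to 231 CPM against 102 to 233 CPM. Il25, a tuft cell cytokine, was the only marker at 0 in all libraries. Mitochondrial genes held 17.1 to 27.1% of the counts in Mll1-/- and 23.3 to 30.1% in Mll1+/- libraries. The part of these markers in the Lgr4 difference was not tested.

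Genes with a profile most like that of each receptor were named by Pearson's r of log2 CPM over the 8 libraries, among 8914 genes with a mean of at least 10 CPM. The libraries differ in genotype, set of library numbers and depth. With so many genes and 8 points, high values of r are a description only. Closest to Lgr4 were Slc11a2, an iron transporter (r = 0.96), and Fuom, a fucose mutarotase (r = 0.95). Fzd7 was closest to Amz2 (0.91) and Dock5 (0.89), the lowest values among the receptors. Fzd6 was followed by Msx1, a homeobox gene (0.97), and Cyp51, an enzyme of sterol synthesis (0.96), and Fzd2 by Lss, also an enzyme of sterol synthesis (0.97), and Ppp1r11 (0.97). For Fzd5 the closest genes were Zfp945 (0.99) and Ttc19 (0.98), for Fzd3 Opa1 and Fam168a (both 0.98), and for Fzd4 Ccdc66 and Alg3 (both 0.94), and each of these profiles contains the extreme value of J_7135. Fzd1 was closest to Csnk2b (0.96) and Pthlh (0.95), Lrp6 to Yipf6 and Rev3l (both 0.96), and Lrp5 to Gm9531 (0.97) and the pseudogene Rpsa-ps4 (0.94), whose counts may include reads of its parent gene.

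The rest of the pathway was read from 8 lists of 101 genes, of which 59 were tested and 0 called by edgeR. An unadjusted p under 0.05 was found for 8 of the 59, with 7 higher and 1 lower in Mll1-/- cells, and their median log2 fold change was 0.16. The background of higher genes at that level was 5.4% and that of lower genes 3.75%. Among 16 other receptors and co-receptors 10 were tested. Lgr5 and Tspan12, a tetraspanin partner of Fzd4, were the most abundant of them. Tspan12 was at 157 ± 31.7 CPM in Mll1-/- and 207 ± 16.4 CPM in Mll1+/- cells (log2 fold change -0.41, adjusted p = 0.486, edgeR). Ror2, a receptor for Wnt5a, was at 11.1 ± 3.50 CPM and 6.36 ± 1.29 CPM (0.80, adjusted p = 0.485, edgeR).

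Ligands were scarce in these cells. Of 20 ligands, the Wnts and Norrin, 4 were tested, and the R-spondins, the ligands of Lgr4, held 0 to 5 counts per library with Rspo1 at 0 throughout. Wnt3, the Wnt of Paneth cells, was at 7.12 ± 3.26 CPM in Mll1-/- and 3.18 ± 2.28 CPM in Mll1+/- cells (log2 fold change 1.16, adjusted p = 0.631, edgeR), Wnt5b at 5.49 ± 3.51 and 4.67 ± 0.933 CPM. Wnt16 reached at most 2.26 CPM in a library. For the proteins that fold, export and remove receptors or Wnts, 8 of 9 genes were tested. Rnf43, one of the ligases that R-spondins inhibit, was at 134 ± 28.4 CPM and 136 ± 20.0 CPM (-0.03), and its partner Znrf3 at 41.3 ± 6.82 CPM and 29.5 ± 7.19 CPM (0.48, SE 0.22, adjusted p = 0.562, edgeR). Atp6ap2, which links receptors to the proton pump, was at 208 ± 80.1 CPM and 282 ± 33.5 CPM, and the Dishevelled antagonist Dact1 at 3.22 ± 1.50 CPM and 6.19 ± 0.935 CPM without overlap (-0.94, adjusted p = 0.564, edgeR).

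All 7 of the 18 antagonists that were tested had a positive fold change, with a median of 1.00, and none was called. Over all tested genes 50.8% had a positive fold change. Antagonists that did not pass the filter went both ways. For example, Kremen2, Sfrp1 and Sfrp4 had counts only in Mll1+/- libraries, and Wif1 only in Mll1-/- libraries. Notum, an enzyme that removes the lipid of Wnts, was at 19.5 ± 8.74 CPM in Mll1-/- and 2.50 ± 1.92 CPM in Mll1+/- cells (log2 fold change 2.97, SE 0.60, adjusted p = 0.195, edgeR), and Dkk3, a divergent Dickkopf, at 9.56 ± 6.00 CPM and 0.574 ± 0.765 CPM (4.08, SE 1.01, adjusted p = 0.251, edgeR). Both were without overlap, but Dkk3 passed the filter on low counts through its Mll1-/- libraries. The more abundant Igfbp4 was at 195 ± 48.9 CPM and 160.1 ± 14.4 CPM, and Sfrp5 at 15.6 ± 5.37 CPM and 10.1 ± 3.72 CPM. Of the 13 genes that act on the receptor complex inside the cell, 11 had a positive fold change, with a median of 0.20. Csnk1g2, a casein kinase of the family that phosphorylates Lrp6, was at 38.7 ± 12.9 CPM and 22.03 ± 2.14 CPM without overlap (0.81, adjusted p = 0.369, edgeR), and Dvl3, a Dishevelled, at 5.60 ± 3.01 CPM and 2.98 ± 1.03 CPM. The most abundant of these were Csnk1a1 (373 ± 41.7 CPM and 329 ± 31.9 CPM) and the lipid kinase gene Pip5k1b (90.2 ± 15.7 CPM and 78.5 ± 7.35 CPM).

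Of 10 partners in planar polarity 6 were tested. Vangl1 (8.51 ± 5.64 CPM and 9.89 ± 4.70 CPM) and Vangl2 (6.32 ± 4.07 CPM and 5.55 ± 2.84 CPM) were the most abundant, and Celsr1 and Prickle3 had log2 fold changes of 0.56 and 0.64 with adjusted p = 0.662 and 0.733 by edgeR. All 15 Wnt target genes of the crypt were tested and 4 had an unadjusted p under 0.05 by edgeR, all higher and without overlap. Among all tested genes, 5.4% were higher at that p and 6.28% did not overlap, in either direction. Nkd1, a feedback inhibitor, was at 65.3 ± 17.7 CPM and 26.4 ± 3.65 CPM (log2 fold change 1.31, adjusted p = 0.139, edgeR), while Cd44 was at 269 ± 113 CPM and 241 ± 9.62 CPM (0.16). The median over the targets was 0.15.

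**Figure D5:**
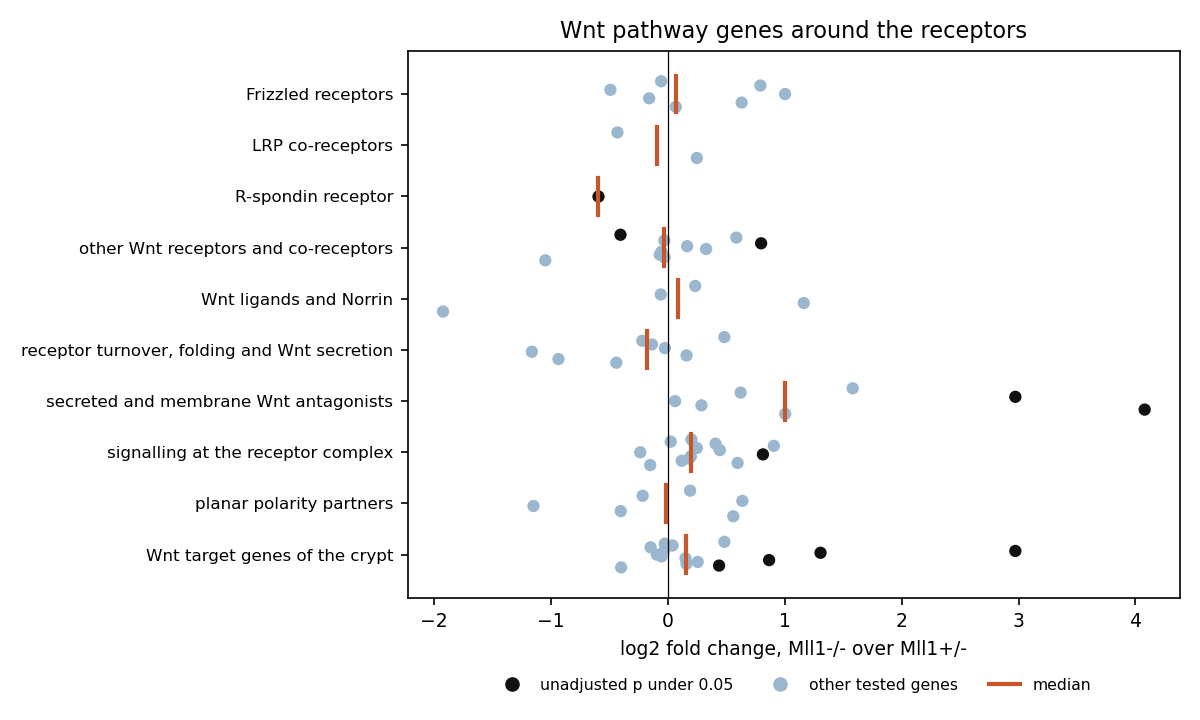
Log2 fold change of Mll1-/- over Mll1+/- (horizontal axis) for each tested gene of the receptors and of the lists around them (rows), with black marks at an unadjusted p under 0.05 and a line at the median of the row. The receptors lie on both sides of 0, the 7 tested antagonists all lie above it, and none of the genes shown was called by edgeR at an adjusted p under 0.1.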

How the data were processed

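RNA of Lgr5-GFP+ cells sorted from 8 mice was measured, 4 per genotype, and the mouse is the replicate. Libraries followed the Smart-seq2 protocol without molecular identifiers or strand information, so floors cover counting error only. Per the submitters' processing notes and the study's methods, the authors aligned reads to mm10 with GSNAP and deposited raw counts of uniquely mapped reads per gene of Ensembl release 92 (featureCounts 1.6.3, mapping quality of at least 1, no strand), so reads that overlap 2 genes were left out. A second deposited table holds signal, for which the authors divided the counts by 1 DESeq2 1.22.2 size factor per library (0.811 to 1.17), which was used here only for symbols and positions.

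The 92 spike-in transcripts were left out of the totals. Genes were filtered with filterByExpr (10 counts, 15 in total), scaled with TMM and fitted by edgeR 4.0.16 in R 4.3.3 (robust quasi-likelihood, genotype as the only term, two-sided). Benjamini-Hochberg adjustment was over 16445 genes, with a threshold of 0.1. This is the false discovery rate of the study, which applied it to DESeq2 and not to edgeR. The common biological coefficient of variation was 0.435. Exact permutation tests and differences within the sets of library numbers used mean log2 CPM (prior count 2). Alternatives were other scalings, filters, DESeq2 1.42.0, limma 3.58.1 (voom with quality weights), a block of the 2 sets of library numbers, a loess offset on gene length (span 0.3) and each library left out. The fits were tested on simulated data. Overlaps with other genes came from GENCODE M21 exons on the same build, whose exonic lengths equalled those of the count table for all 10 receptors.

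The receptors and gene lists were chosen with earlier results of these data known. The text names all receptors, Kmt2a and Ctnnb1, the 2 most abundant genes and the 2 with the smallest p of each list, any called gene, the 2 genes most like each receptor, and the sum and most abundant gene of the marker lists. Fzd8, genes with low counts, the antisense genes and marker genes named beside the most abundant were added after their values were seen. Ctnnb1 was at 179 ± 18.0 CPM in Mll1-/- and 167 ± 20.5 CPM in Mll1+/- cells.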

Additional observations from a re-analysis of the deposited data

Results flagged for a closer look

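The share of Fzd4 in the summed Frizzled transcripts per length was 6.38% in J_7135, and the other Mll1-/- libraries held 0.241 to 1.21%, so this library stood far from the rest of its group. The ratio of Fzd7 to Fzd5 per length was 36.5 in J_7135 against 1.66 to 3.85 in the other Mll1-/- libraries. Of 50 groups of 4 libraries examined in this way chance would mark about 1 in 20, and both marks come from the same library.

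Outside the genes, J_7100 held 36 counts on the 92 spike-in transcripts, and the other libraries held 0 to 2. The spike-in counts entered no comparison.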

How the results depend on the processing

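Across 18 alternatives, 8 of them with 1 library left out, no receptor was called except under DESeq2, which called 1 (Lgr4, -0.59, adjusted p = 0.0374). The adjusted p of Lgr4 ranged from 0.0374 to 0.598, its log2 fold change from -0.69 to -0.41. Of 178 receptor values 164 kept direction and call, 13 took the other sign and 1 passed the threshold. Fzd3 took the other sign on total counts (0.036) and with limma-voom (0.057), Fzd7 on total counts (0.12), and Fzd1 with the block of library sets (-0.032) and the length offset (-0.0055). Total counts shifted the median of all genes to 0.19, relative to which Fzd3 was at -0.16 and Fzd7 at -0.07. With 1 library left out, Fzd1 ranged from -0.16 to 0.33, Fzd3 from -0.56 to 0.24, Fzd4 from -0.20 to 1.41, Fzd7 from -0.11 to 0.0074 and Lrp5 from -0.026 to 0.41. The cause of these changes was not tested. The called genes of the whole table, 14 with 8 higher in Mll1-/-, were 8 (3 higher) with upper-quartile scaling, 14 (13 higher) on total counts, 47 (24 higher) without the filter, 34 (15 higher) with at least 10 counts in every library, 406 (244 higher) with DESeq2, 103 (56 higher) with limma-voom, 7 (1 higher) with the length offset, and 0 with the block of library sets, where 1642 genes had an unadjusted p under 0.05. They were 0 to 45 with 1 library left out: 45 without J_7135, 2 without J_7075 and 0 without any of the other 6. The filter of 10 counts in every library left out Fzd3 and Fzd4. Without division by length, 8 of 10 receptors kept their rank in Mll1+/- cells but 4 of 10 over all libraries. Over unshared bases 8 of 10 kept it, Fzd5 passing Fzd6, and the Fzd7 share was 30.2 to 56.5%. The length settings over all libraries were chosen after seeing the data. No paired analysis was possible because the labels give each mouse its own animal number and no number shared between the genotypes (replicates were numbered here in accession order). Low counts limit Fzd3, Fzd4 and Lrp5 most.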
